A study of Mus musculus with 16 samples.

Results

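Pancreata of mouse embryos that were heterozygous for both Pdx1 and Onecut1 (Oc1 in the labels) were compared with control pancreata at embryonic day 15.5, across all genes counted. The double heterozygous embryos carried a lacZ allele of Pdx1 together with 1 altered Onecut1 allele (Pdx1LacZ/+;Oc1+/-), and the labels give 5 such samples and 4 controls, which are 9 of the 16 samples in the series. The other samples are 4 Pdx1 heterozygotes (Pdx1LacZ/+) and 3 Oc1 heterozygotes (Oc1+/-) of the same age, and they are used here only beside the double heterozygotes. All are labelled as a mixed background strain, and the control genotype is given only as control. Both alleles are germline heterozygous changes as far as the labels tell, so every cell of the embryo may carry them, and which part of each gene is lost is not given in the sources used here. Litters are not given, and p-values therefore reflect only how much these samples vary, which may in part be technical. Each whole pancreas was dissected and its total RNA sequenced, although the source label speaks of pancreatic progenitors, and the tissue held hormone, acinar and mesenchyme transcripts alike.

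Every value below is from the authors' deposited table of comparisons, which gives for each gene its log2 fold change, the log2 of its mean CPM (read counts scaled to library size, over all libraries), a p-value and a p adjusted for the false discovery rate. That table lists 2283 genes of the 22869 counted. A gene is listed there only if it passed an adjusted p of 0.1 with at least a 1.5-fold change in at least 1 of 5 comparisons, so a gene that is not listed did not reach that in any of them. The columns of the read-count table carry flow cell and lane names that no label ties to a sample, so values per library, depth and spread within groups were not analysed here. The headings of the table do not all fit its arithmetic. The comparison headed double against Pdx1 heterozygous equals the Pdx1 comparison minus the double comparison in 2275 of 2275 rows, so its sign was turned for the values below. A further comparison, headed double against Oc1 heterozygous, equals the Pdx1 comparison minus the Oc1 comparison in 2279 of 2279 rows, so by its values it holds Pdx1 against Oc1 heterozygotes and was set aside. If the headings of the Pdx1 and double comparisons against control were exchanged, both of these headings would hold as printed with no sign turned, so the arithmetic alone favours an exchange. The variance that the p-values imply was therefore set against the group sizes. Relative to the comparison headed Pdx1 against control, it had a median of 0.905 over 704 genes in the one headed double against control, where the group sizes give 0.9 as printed and 1.11 exchanged. In the one headed Oc1 against control it was 1.15 over 741 genes, against 1.17 and 1.30. In the pair of direct comparisons it was 0.897 and 1.14, where the sizes give 0.9 and 1.17 when these are read by their arithmetic, and 1 and 1.19 after an exchange. Under an exchange the double heterozygotes would have Onecut1 above control, at a log2 fold change of 0.42. The headings of the comparisons with control were kept as printed. Every result below rests on this reading, and under an exchange the values given for the double and the Pdx1 heterozygotes would trade places.

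Pdx1 is a homeodomain transcription factor without which the pancreas does not form, and in mature beta cells it drives insulin transcription. Onecut1, also called HNF6, is a cut-homeodomain factor of the pancreatic epithelium that acts upstream of Neurog3, the factor that commits a progenitor to the endocrine fate. At this embryonic age the pancreas passes through its main wave of endocrine and acinar differentiation, and most hormone-positive cells are newly made.

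In the authors' deposited table, Pdx1 itself fell 1.52-fold in the double heterozygotes (log2 fold change -0.61, adjusted p 5.03e-07), beside -0.47 in the Pdx1 heterozygotes (adjusted p 0.00427) and -0.12 in the Oc1 heterozygotes (adjusted p 0.586). Onecut1 had a log2 fold change of -0.27 against control, which did not pass (adjusted p 0.954). Its values were 0.42 in the Pdx1 heterozygotes and -0.48 in the Oc1 heterozygotes. Set directly against the Pdx1 heterozygotes, Onecut1 fell by 0.70 on the log2 scale in the double heterozygotes (adjusted p 0.0319). Reads from the altered alleles may still map to each gene, so these values are a weak check of the genotypes. Of the paralogs, Onecut2 had a log2 fold change of 1.53 and missed the threshold (adjusted p 0.0533), and Onecut3 is not listed.

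Calls were made at an adjusted p under 0.05 with at least a 1.5-fold change. By this rule 170 genes, 0.743% of those counted, differed between double heterozygous and control pancreas. Of these, 127 were lower (0.555%) and 43 were higher (0.188%). The lower genes had a median log2 fold change of -0.94, with 54 past 2-fold, and the higher genes had a median of 1.07, with 23 past 2-fold. Over all 2275 listed genes with a value the median log2 fold change was 0.05, and 1006 of them were below 0. By the authors' edgeR test 574 of them had p under 0.05 before adjustment. Of the genes listed, 5.56% were called lower and 1.88% higher. Listing itself required a pass in some comparison, this one included. Counts and medians over listed members of the gene lists below therefore do not describe whole lists. In whole tissue, fewer cells of a type and less RNA per cell cannot be told apart. Of the lower genes 47 are members of the gene lists described below and 80 of none, and of the higher genes 12 are members and 31 are not.

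**Figure D1:**
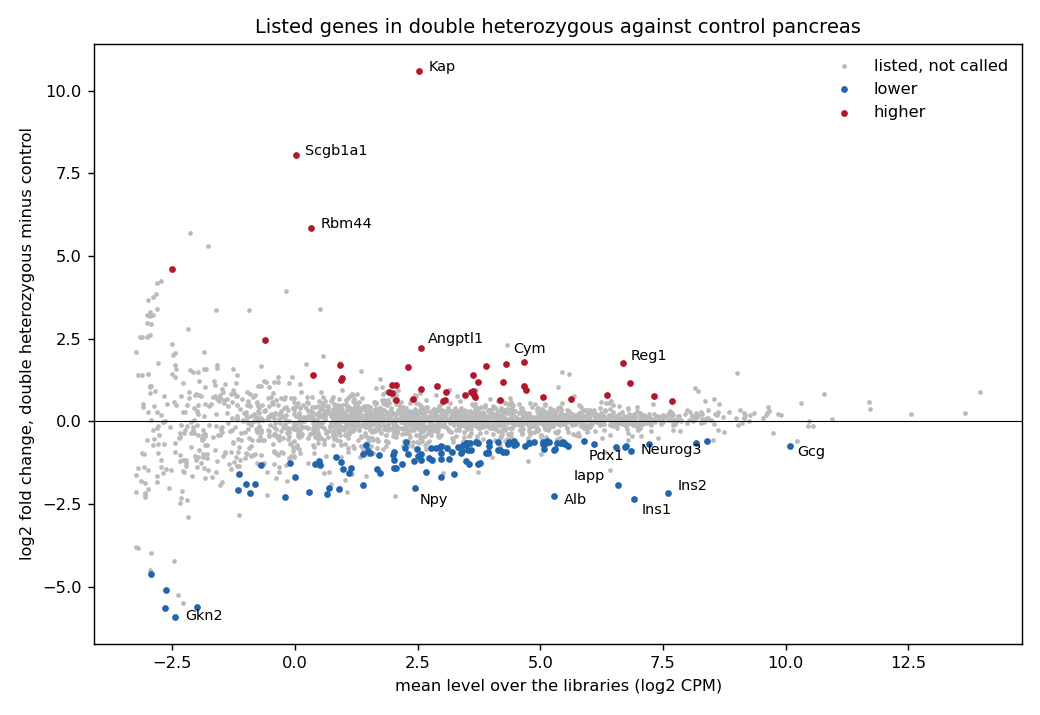
Log2 fold change of double heterozygous against control pancreas (vertical axis) by mean log2 CPM (horizontal axis) for the listed genes, from the authors' deposited table. Blue points are the 127 genes called lower, red points the 43 called higher and grey points the others. The insulin genes Ins1 and Ins2 lie below the other genes of their abundance at -2.36 and -2.18, and Kap lies at 10.59.

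The insulin genes fell further than any other listed transcript of their abundance. In the authors' deposited table Ins1 fell 5.12-fold (log2 fold change -2.36, adjusted p 8.89e-23) at a mean log2 CPM of 6.92. Ins2, the second insulin gene of the mouse, fell 4.53-fold (log2 fold change -2.18, adjusted p 7.89e-25). Iapp, which encodes the amyloid polypeptide stored with insulin, fell 3.78-fold (log2 fold change -1.92, adjusted p 1.79e-18). In the Pdx1 heterozygotes the same genes had log2 fold changes of -0.50, -0.52 and -0.60, none of which passed (adjusted p 0.763, 0.527 and 0.292). In the Oc1 heterozygotes all of them were above control, at 0.93, 0.90 and 0.72 (adjusted p 0.00192, 0.000556 and 0.0108). These comparisons share the control libraries. Against the Pdx1 heterozygotes directly, the double heterozygotes were lower by tests of their own. Ins1 fell by 1.86 on the log2 scale there (adjusted p 1.18e-13), Ins2 fell by 1.66 (adjusted p 1.08e-13) and Iapp fell by 1.31 (adjusted p 9.94e-08). Ins1 and Ins2 are close paralogs, and how reads common to both were assigned is not given in the sources used here.

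The promoters of Ins1 and Iapp are shown because these genes are among the most decreased of the abundant transcripts and Pdx1 is known to bind both promoters. The sequences are the 250 bases before the RefSeq start site, from GRCm38.p6, at chr19:52264047-52264296 on the plus strand for Ins1 and chr6:142298175-142298424 on the plus strand for Iapp. Capitals mark matches on either strand to the homeodomain core TAAT, to ATTGAT (a core of Onecut sites) and to CAGATG (an E-box of insulin promoters), the first of which was added after the others had been searched.
Ins1: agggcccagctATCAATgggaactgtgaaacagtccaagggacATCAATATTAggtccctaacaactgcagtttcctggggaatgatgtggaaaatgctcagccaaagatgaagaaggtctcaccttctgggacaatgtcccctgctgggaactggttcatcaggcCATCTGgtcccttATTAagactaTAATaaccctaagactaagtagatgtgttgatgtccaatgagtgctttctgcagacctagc
Iapp: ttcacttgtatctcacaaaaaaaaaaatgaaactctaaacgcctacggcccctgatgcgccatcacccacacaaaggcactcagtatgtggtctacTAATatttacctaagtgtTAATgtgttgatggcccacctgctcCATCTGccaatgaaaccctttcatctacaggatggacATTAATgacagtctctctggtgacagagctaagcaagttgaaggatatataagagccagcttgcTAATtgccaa
In Ins1 the Onecut core lies on the minus strand at -239 and -207, the E-box at -84 and TAAT at -201, -71 and -61. In Iapp the E-box lies at -111 and TAAT at -154, -136, -74, -72 and -10, of which the matches at -74 and -72 overlap. Neither window holds the other motifs searched, which are spelled out next.

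TAAT is in 55.3% of all 27025 promoters of that length, in 55.9% of the 93 promoters found for the 127 lower genes and in 51.9% of the 27 found for the 43 higher genes. ATTGAT is in 6.97% of all promoters, 9.68% of those of lower genes and 7.41% of those of higher genes. CTAATG, a core of Pdx1 sites, is in 6.48%, 9.68% and 11.1%. TAATTA, a palindrome that contains TAAT on both strands, is in 4.90%, 6.45% and 3.70%. TGCTGA, from the Maf recognition element, is in 15.8%, 18.3% and 14.8%, and CAGATG is in 14.5%, 11.8% and 14.8%. The promoter of Mnx1, the gene of a homeodomain factor described below, holds TAAT at -249 and no other motif searched, and that of Neurog3 holds none.

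**Figure D2:**
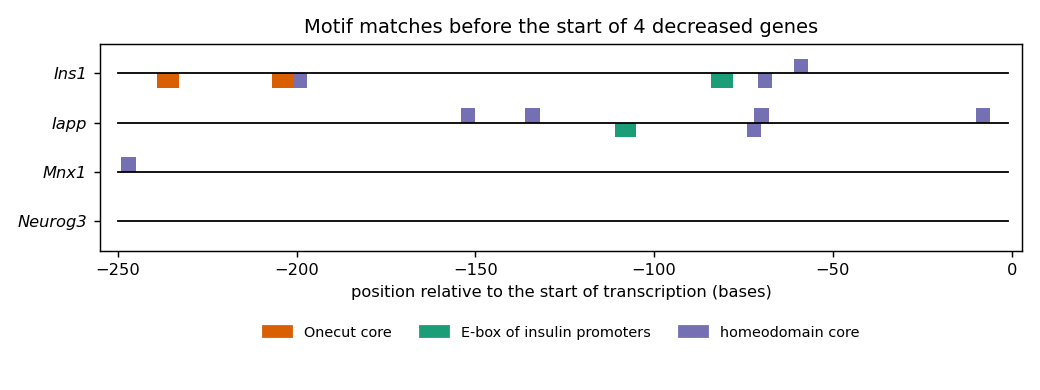
Motif matches in the 250 bases before the start site of Ins1, Iapp, Mnx1 and Neurog3, by position relative to the start (horizontal axis, bases), with matches on the plus strand above each line and on the minus strand below it. Orange marks the Onecut core, green the E-box and purple the homeodomain core TAAT, and Ins1 alone of these 4 holds an Onecut core, at -239 and -207.

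Several other islet and gut hormones also fell. Of 20 peptide hormone genes, 8 were called lower and 0 higher in the authors' deposited table. Over all genes counted the shares were 0.555% and 0.188%. The 15 listed hormone genes had a median log2 fold change of -0.95. With p under 0.05 before adjustment, 11 were lower and 0 higher by the authors' edgeR test. Of the 2275 listed genes with a value, 574 had such a p in either direction. Npy, the neuropeptide Y gene, fell 4.01-fold (adjusted p 5.7e-06). Npy was also called lower in the Pdx1 heterozygotes (adjusted p 0.000278), and the direct comparison of double against Pdx1 heterozygous gave a log2 difference of -0.01. Gast, the gastrin gene, fell 2.93-fold and Vip, which encodes vasoactive intestinal peptide, fell 2.43-fold. Sst, the delta cell hormone somatostatin, fell 1.93-fold (log2 fold change -0.95, adjusted p 0.0126), beside 0.14 in the Pdx1 heterozygotes and 1.01 in the Oc1 heterozygotes. Gcg, the glucagon gene of alpha cells, had the highest mean level of the listed hormones, at a mean log2 CPM of 10.09 and fell 1.69-fold (log2 fold change -0.76, adjusted p 0.007). Other hormones did not pass. Pyy had a log2 fold change of -0.57, just under the fold minimum, with an adjusted p of 0.0177. Ghrl, the ghrelin gene, was at -0.02 and Ppy, the pancreatic polypeptide gene, at -0.04, both with an adjusted p of 1.

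Some genes of the endocrine commitment program also fell. Of 28 such factors, 5 were called lower and 0 higher, beside 0.555% and 0.188% of all genes counted. The 11 listed factors had a median log2 fold change of -0.63. At an unadjusted p under 0.05, 8 members were lower and 1 was higher, which was Sox11 at 0.30. In the authors' deposited table Neurog3, the switch to the endocrine fate, fell 1.68-fold (log2 fold change -0.75, adjusted p 0.00025), beside -0.32 in the Pdx1 heterozygotes (adjusted p 0.853) and -0.65 in the Oc1 heterozygotes (adjusted p 0.00269). Against the Pdx1 heterozygotes the Neurog3 difference of -0.43 did not pass (adjusted p 0.169). Pax4, which favours beta and delta cells, fell 1.65-fold (adjusted p 0.0259), and its value in the Oc1 heterozygotes was -0.93. Myt1, a zinc finger factor of endocrine progenitors, fell 1.58-fold (adjusted p 0.00122). Insm1, another zinc finger factor of these cells, fell 1.55-fold (adjusted p 0.0419). Pax6, which all islet hormone cells use, fell 1.56-fold (adjusted p 7.31e-06), and against the Pdx1 heterozygotes it was at -0.52, which passed on adjusted p (0.00103) but not on fold. Neurod1, a target of Neurog3, passed on the adjusted p of 0.0338 at a log2 fold change of -0.41, which is under the fold minimum. Sox4 was at 0.01. Isl1, Nkx2-2 and Rfx6 are not listed.

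Among 22 transcription factors of beta cells, 4 were lower and 1 was higher, beside 0.555% and 0.188% of all genes counted. Mafa, an activator of insulin genes in maturing beta cells, fell 2.98-fold in the authors' deposited table (log2 fold change -1.57, adjusted p 2.76e-05). Mnx1, a homeodomain factor required for beta cell fate, fell 2.72-fold (log2 fold change -1.44, adjusted p 1.61e-07). For Mnx1 the direct comparison with the Pdx1 heterozygotes also passed, at -1.03 (adjusted p 0.00138), whereas its values in each single heterozygote against control were -0.42 and -0.49 and did not pass. Pdx1, the gene altered by genotype, is also among the 4 members that fell, so that count is not independent of the design. Nkx6-2, a homeodomain factor related to Nkx6-1, rose 1.66-fold (log2 fold change 0.73, adjusted p 0.0138), and it was also higher than in the Pdx1 heterozygotes (0.84, adjusted p 0.0018). Nkx6-1 and Foxa2 are not listed.

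**Figure D3:**
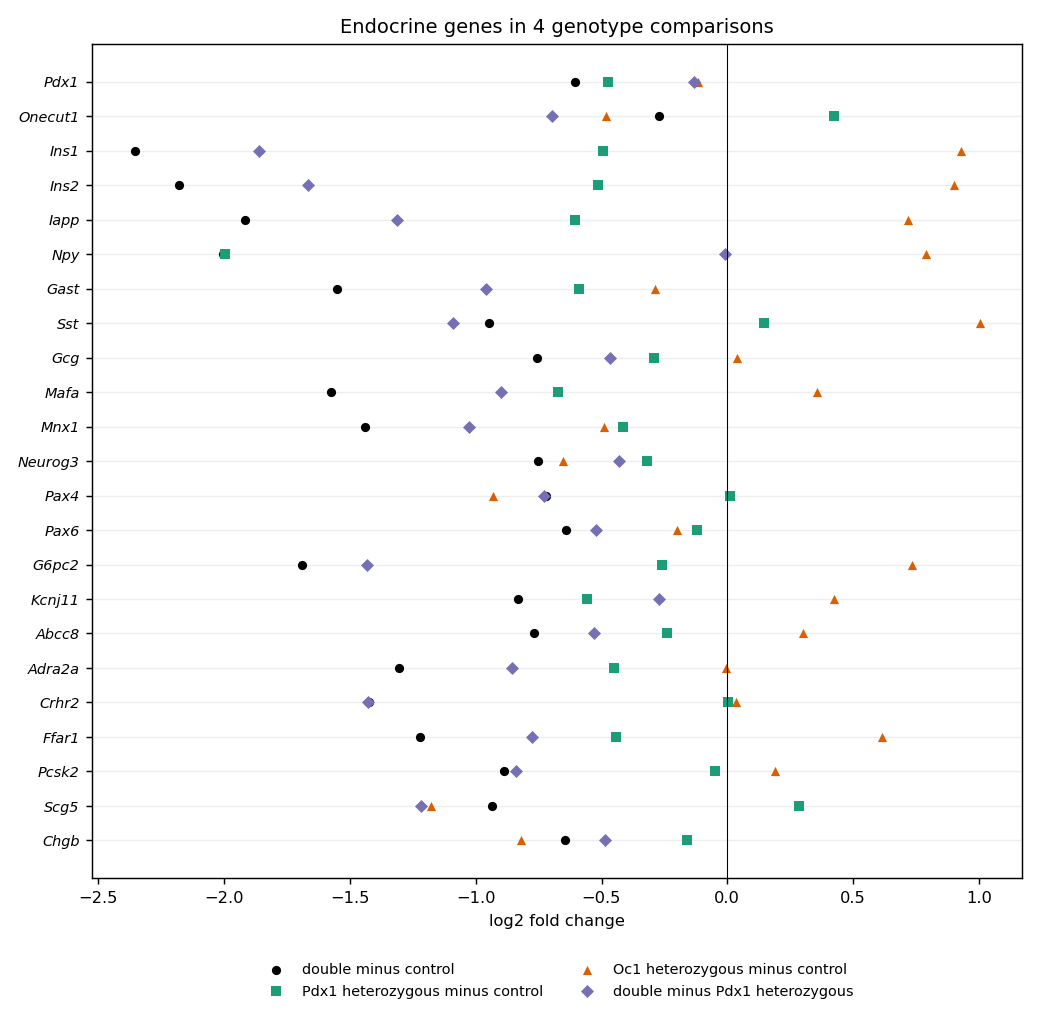
Log2 fold change of endocrine genes in 4 comparisons of the authors' deposited table: double heterozygous minus control (black circles), Pdx1 heterozygous minus control (green squares), Oc1 heterozygous minus control (orange triangles) and double minus Pdx1 heterozygous (purple diamonds). For Ins1, the black circle at -2.36 lies left of the green square at -0.50 and the orange triangle at 0.93. Comparisons share libraries, so the points of a gene are not independent.

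Some genes that couple glucose to insulin release fell. Of 34 genes of glucose sensing and membrane excitability, 6 were lower and 0 were higher, beside 0.555% and 0.188% of all genes counted. The 15 listed members had a median log2 fold change of -0.20. Before adjustment, 7 members were lower and 0 higher with p under 0.05. In the authors' deposited table G6pc2, the islet glucose-6-phosphatase subunit, fell 3.23-fold (log2 fold change -1.69, adjusted p 3.59e-11). Kcnj11, the pore of the ATP-sensitive potassium channel, fell 1.78-fold (log2 fold change -0.83, adjusted p 3.46e-12). Abcc8, the sulfonylurea receptor that completes this channel, fell 1.71-fold (log2 fold change -0.77, adjusted p 4.32e-08). In the Pdx1 heterozygotes Kcnj11 was at -0.56, which passed on adjusted p (0.000533) but not on fold, and the double heterozygotes did not differ from these past the threshold (-0.27, adjusted p 0.249). Other members that fell were Atp2a3, an endoplasmic reticulum calcium pump, at -0.67, and Nnat, neuronatin, at -0.69. Slc2a2, the main glucose transporter of mouse beta cells, had -0.38 and did not pass (adjusted p 0.53). Kcnq1, Cacna1h and Pcx lay at 0.02, -0.10 and 0.06.

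Some receptors of islet cells also fell. Of 30 receptor genes, 6 were lower and 0 higher, beside 0.555% and 0.188% of all genes counted. The median was -0.64 over the 12 listed. At an unadjusted p under 0.05, 7 were lower and 1 was higher, which was the kappa opioid receptor gene Oprk1 at 0.79. Adra2a, an adrenergic receptor that restrains insulin release, fell 2.47-fold in the authors' deposited table (log2 fold change -1.30, adjusted p 1.12e-12), beside -0.45 and -0.01 in the Pdx1 and Oc1 heterozygotes. Against the Pdx1 heterozygotes Adra2a fell by 0.86 (adjusted p 6e-05). Oprd1, the delta opioid receptor gene, fell 2.69-fold, and unlike Adra2a it had similar values in the other genotypes, -1.37 in the Pdx1 heterozygotes (adjusted p 0.000141) and -1.57 in the Oc1 heterozygotes (adjusted p 7.4e-07). Ffar1, a receptor for fatty acids that potentiates insulin release, fell 2.33-fold. Glp1r, the receptor of the incretin GLP-1, fell 2.29-fold with an adjusted p of 0.0485, the value nearest the threshold among called genes. Casr, the calcium-sensing receptor, fell 1.97-fold and Sstr3, a somatostatin receptor, fell 1.8-fold.

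Some prohormone processing and granule genes fell, by smaller amounts than insulin. Of 27 members 6 were lower and 0 higher, beside 0.555% and 0.188% of all genes counted. The 11 listed members all had values below 0, with a median of -0.62 and 9 of them with p under 0.05 before adjustment. They are listed because they passed in some comparison, and 8 were called lower against the Pdx1 heterozygotes. Their values therefore do not describe the unlisted members. In the authors' deposited table Pcsk2, the convertase that matures glucagon and insulin precursors, fell 1.85-fold (log2 fold change -0.89, adjusted p 2e-06). Scg5, the chaperone of Pcsk2, fell 1.91-fold (adjusted p 0.0471). Chgb, Scg2 and Scg3, granins of the dense-core granule, had log2 fold changes of -0.65, -0.63 and -0.67, and Ptprn, a granule membrane protein, had -0.62. The values of this group did not run alike in the Oc1 heterozygotes, where Scg5 was at -1.18 and Chgb at -0.82 but Scg2 at 0.71, each past the threshold. Chga and Pcsk1 were at -0.50 and -0.47 in the double heterozygotes and did not pass (adjusted p 0.219 and 0.347). Of 31 genes of regulated exocytosis, 2 were lower and 1 was higher, again beside 0.555% and 0.188% of all genes counted. Scgn, a calcium sensor of islet cells, fell by 0.69 and Sytl4, which links granules to the small GTPase Rab27, fell by 0.65 on the log2 scale. Rab27b, a GTPase of exocytosis that acinar cells also use, rose by 0.74. Syt13 passed on its adjusted p of 0.00399 but not on fold, at -0.45.

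Several lower genes belong to none of these groups. Arhgap36, whose product antagonises protein kinase A, fell 3.02-fold in the authors' deposited table (log2 fold change -1.60, adjusted p 2.14e-08) and was at 1.09 in the Oc1 heterozygotes. Crhr2, a receptor of the urocortins, fell 2.69-fold (log2 fold change -1.43, adjusted p 2.75e-06). Its values in the Pdx1 and Oc1 heterozygotes were 0.00 and 0.03, both with an adjusted p of 1, and against the Pdx1 heterozygotes it fell by 1.43 (adjusted p 4.04e-06). Muc4, a membrane mucin, fell 2.68-fold. Nepn, nephrocan, a secreted leucine-rich protein, fell 3.8-fold, with values of -1.31 and -1.29 in the Pdx1 and Oc1 heterozygotes that both passed. Gulo, the last enzyme of vitamin C synthesis in mice, fell 2.4-fold (adjusted p 3.5e-09), and Papss2, which makes the sulfate donor, fell 1.62-fold (adjusted p 1.32e-08). The following were chosen after their values were seen. Klb, a co-receptor of FGF hormones, fell 2.22-fold, O3far1, a fatty acid receptor, fell 2.23-fold, and Gpr142, an amino acid receptor, fell 1.96-fold. Gjd2, the gap junction protein that couples beta cells, fell 1.83-fold.

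The 43 higher genes held no hormone and no islet receptor of the lists. Apart from Kap, which is described with the kidney markers, the largest increase past a mean log2 CPM of 1 was Angptl1, an angiopoietin-like secreted protein, which rose 4.66-fold in the authors' deposited table (log2 fold change 2.22, adjusted p 4.02e-05). Sostdc1, a secreted antagonist of BMP and Wnt signalling, rose 3.48-fold (adjusted p 5.68e-06). Reg1, a regenerating protein secreted by acinar cells, rose 3.36-fold (log2 fold change 1.75, adjusted p 3.59e-07). All of these also passed in the Pdx1 heterozygotes, at 1.83, 1.23 and 1.62, and in the Oc1 heterozygotes, at 2.26, 2.60 and 2.84. None of them differed past the threshold between double and Pdx1 heterozygotes. Cym, the gene of the protease chymosin, rose 3.3-fold (log2 fold change 1.72, adjusted p 0.000266), but was at -1.57 in the Oc1 heterozygotes (adjusted p 0.0016) and at 0.42 in the Pdx1 heterozygotes (adjusted p 1). Against the Pdx1 heterozygotes Cym was higher by 1.30 (adjusted p 0.0165).

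The aldehyde dehydrogenase genes Aldh1a1 and Aldh1a7 both rose 2.26-fold, with adjusted p-values of 3.48e-05 and 5.68e-06 in the authors' deposited table. They are neighbours in the genome and close paralogs, so reads may have been shared between them. Aldh1a1 makes retinoic acid from retinaldehyde. Myo16, an unconventional myosin, rose 2.64-fold, Sec16b, a protein of endoplasmic reticulum exit sites, rose 2.26-fold, and Chrm1, a muscarinic acetylcholine receptor, rose 2.16-fold. Pcdh10, a protocadherin, rose 2.13-fold (log2 fold change 1.09, adjusted p 0.000494) and was at -0.27 and -0.43 in the Pdx1 and Oc1 heterozygotes. Its difference from the Pdx1 heterozygotes was 1.36 (adjusted p 4.91e-06). Nup62cl and 2210010C17Rik rose 2.08-fold and 2.1-fold. Both were also called higher in the Oc1 heterozygotes, at 1.62 and 2.29, and Nup62cl in the Pdx1 heterozygotes, at 0.98 (adjusted p 0.00235). Gli1, a target gene of Hedgehog signalling, was named after its value was seen. It rose 1.86-fold (adjusted p 0.012), with 1.02 in the Pdx1 heterozygotes and -0.16 in the Oc1 heterozygotes.

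**Figure D4:**
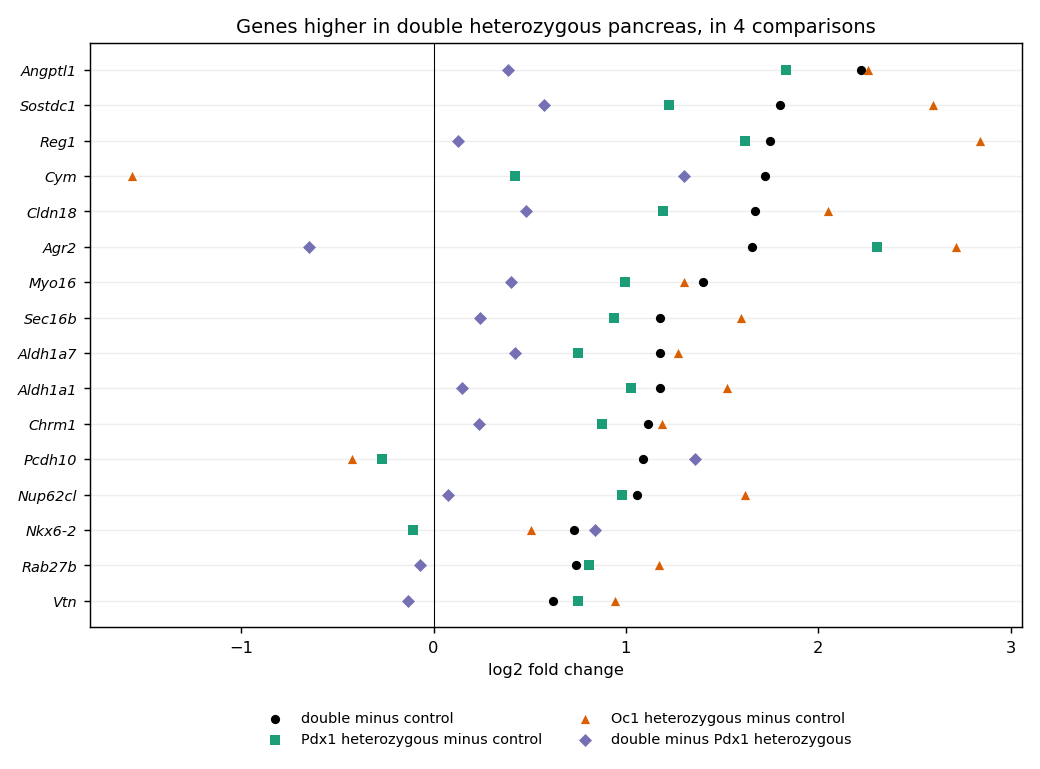
Log2 fold change of genes called higher in double heterozygous pancreas, in 4 comparisons of the authors' deposited table, with the same symbols as the plot of endocrine genes. For most genes the black, green and orange points lie right of 0, as for Reg1 at 1.75, 1.62 and 2.84, while Cym has its orange triangle at -1.57 and Pcdh10 has green and orange points at -0.27 and -0.43.

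Few exocrine and ductal genes passed the test in the double heterozygotes. Of 42 acinar enzyme and granule genes the authors' deposited table lists 36, of which 2 were higher (Reg1 and Cym) and 0 were lower. Over all genes counted 0.188% were called higher and 0.555% lower in the double heterozygotes. The 36 listed acinar genes had a median of 0.48, and 13 were above and 4 below control with p under 0.05 before adjustment. Pnliprp1, a lipase-related protein and the most abundant of all listed genes at a mean log2 CPM of 13.97, was at 0.89 (adjusted p 0.15). Ctrb1, chymotrypsinogen, was at 0.26, and the carboxypeptidase Cpa1 was at 0.22. In the Oc1 heterozygotes 32 of the 42 were called higher (3.66% of all genes counted were), with Ctrb1 at 2.12, and in the Pdx1 heterozygotes 3 were (0.206% of all). The trypsin genes are near-identical copies, so their separate values are uncertain. Of 10 acinar transcription factors 0 were called (edgeR), while 1 had p under 0.05 before adjustment, Xbp1 at 0.27. Of 23 chaperones and unfolded protein response genes 0 were called, with 2 higher at an unadjusted p under 0.05. In the Oc1 heterozygotes 16 of these 23 were called higher (3.66% of all genes counted were), and the other members are not listed. Of 22 Notch pathway genes 0 were called and 0 had an unadjusted p under 0.05. Of 28 ductal and trunk genes only Sostdc1 was called, and the listed members Muc1 and Bicc1 were at 0.06 and 0.05. Sox9 and Hes1 are not listed.

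**Figure D5:**
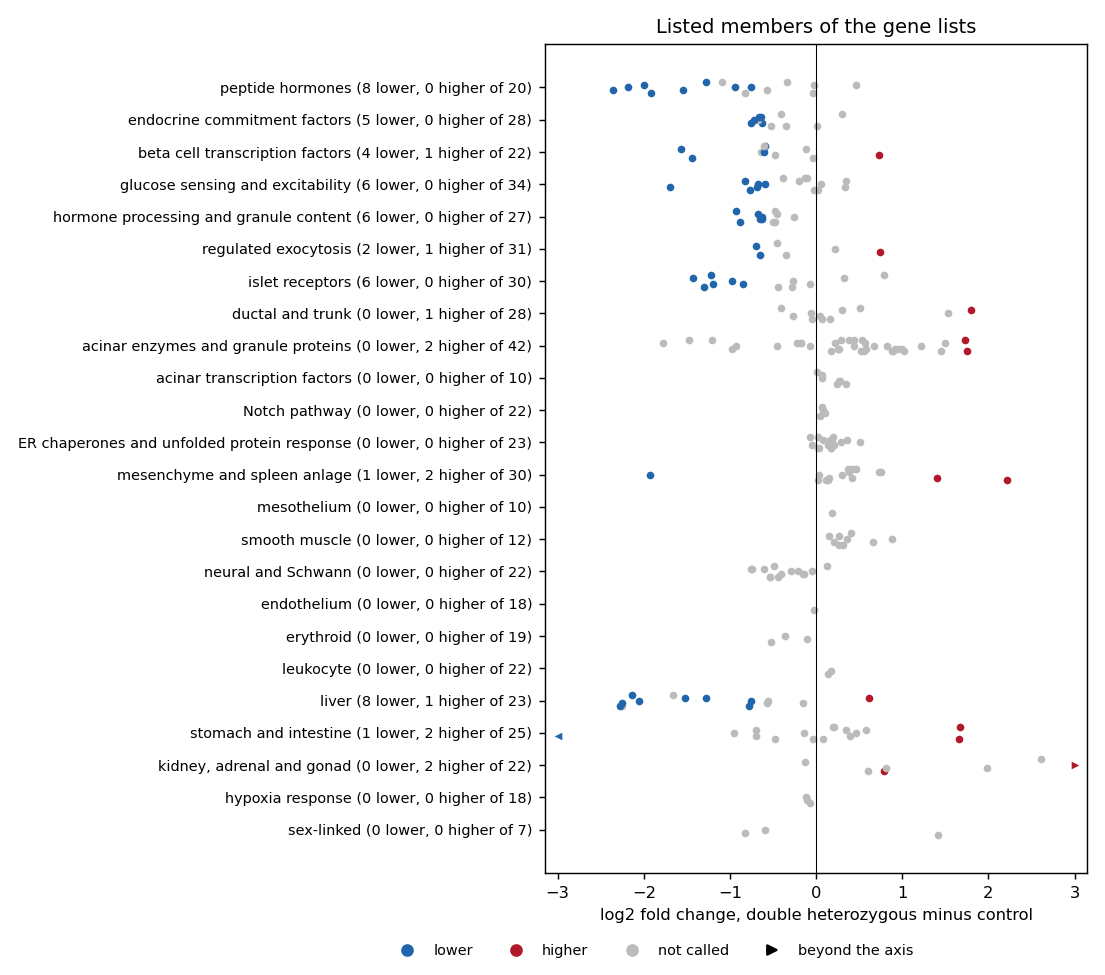
Log2 fold change, double heterozygous minus control, of the listed members of each gene list, from the authors' deposited table. Blue points were called lower, red points called higher and grey points not called, and triangles lie beyond the axis. The endocrine lists have most of their called members at the left, with 8 of 20 peptide hormones lower. Among beta cell transcription factors Nkx6-2 was called higher, at 0.73. The acinar, Notch and chaperone lists have 0 lower.

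Some markers of other tissues also differed, and their part in the results above was not tested. Of 23 liver genes 8 were lower and 1 was higher, beside 0.555% and 0.188% of all genes counted. The median was -1.40 over the 14 listed, from -2.28 to 0.62. In the authors' deposited table Alb, albumin, fell 4.77-fold (log2 fold change -2.25, adjusted p 0.00839), Apoa1 fell 2.88-fold, and the fibrinogen genes Fga, Fgb and Fgg fell by 2.06, 1.28 and 2.14 on the log2 scale. Apoh, Trf and Rbp4 fell by 2.28, 0.75 and 0.78. Rbp4, the retinol carrier, had an adjusted p of 1.09e-09 and islet cells also make it. Vtn, vitronectin, rose by 0.62. Alb was at -2.05 in the Pdx1 heterozygotes, which did not pass (adjusted p 0.107), and Afp and Ttr are not listed. Of 25 stomach and intestine genes 2 were higher and 1 was lower, beside 0.188% and 0.555% of all genes counted. Cldn18, a claudin, and Agr2, a disulfide isomerase of secretory epithelia, rose 3.18-fold and 3.15-fold. Both were also called higher in the Oc1 heterozygotes, at 2.05 and 2.71, and Agr2 in the Pdx1 heterozygotes, at 2.31 (adjusted p 0.00315). Gkn2 fell by 5.91 on the log2 scale at a mean log2 CPM of -2.44, where few reads count. Lgals4 and Vil1 were at 0.20 and -0.04.

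Kap, a gene expressed in kidney, had the largest value of the comparison, a log2 fold change of 10.59 (adjusted p 0.00418) at a mean log2 CPM of 2.53. The authors' deposited table puts it at 11.01 for the Pdx1 heterozygotes (adjusted p 0.0101) and 3.06 for the Oc1 heterozygotes, and whether 1 library carries it was not analysed here. Scgb1a1 and Rbm44, named after their values were seen, had log2 fold changes of 8.07 and 5.86 at mean log2 CPM of 0.01 and 0.33. In the Pdx1 and Oc1 heterozygotes Rbm44 was at 5.65 and 7.41, both called, and Scgb1a1 at 8.18 and 1.83, neither past the threshold. Of 22 kidney, adrenal and gonad genes 2 were higher and 0 lower, beside 0.188% and 0.555% of all genes counted. The 2 were Kap and Cdh16, a cadherin of kidney epithelium, the latter at 0.79. At an unadjusted p under 0.05, 6 of these 22 were higher, and Umod and Pax2 are not listed. Of 30 genes in the list for mesenchyme and spleen anlage, Nepn was lower and Angptl1 and Isl2 were higher. The shares of all genes counted were 0.555% lower and 0.188% higher. Isl2 rose by 1.41 (adjusted p 0.00586), while Pdgfra was at 0.04 and Tcf21 at 0.41, neither called. Whether the called members come from mesenchyme was not tested. The 16 listed mesenchyme genes had a median of 0.37, with 1 below 0. At an unadjusted p under 0.05, 4 of them were higher and 1 was lower. Of 22 neural and Schwann genes 0 were called, yet 13 of the 14 listed lay below 0, with a median of -0.42 and 6 lower at an unadjusted p under 0.05. Gap43, a growth cone protein, was at -0.41 and Ret at 0.13. Smooth muscle had 9 of 12 members listed and 0 called, with a median of 0.31 and 0 at an unadjusted p under 0.05. Mesothelium, endothelium and leukocytes had 1, 1 and 2 listed members, with 0 called and 0 at an unadjusted p under 0.05. Erythroid genes had 3 listed and 0 called, with 1 lower at an unadjusted p under 0.05. Hypoxia genes had 3 listed and 0 called, with 0 at an unadjusted p under 0.05, and no immediate early or cell cycle gene is listed. Xist was at -0.59 and Ddx3y at 1.42, neither past the threshold (adjusted p 1 and 0.827). In the Oc1 heterozygotes Xist was at -8.78 and Ddx3y at 2.64, the labels do not give the sex of the embryos, and its part in the Oc1 values was not tested. Xist and Tsix overlap on opposite strands, and the kit as labelled does not say that strand was kept.

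The direct test against the Pdx1 heterozygotes was called for 197 genes (0.861% of those counted) in the authors' deposited table, 144 lower (0.63%) and 53 higher (0.232%). That test uses the same double heterozygous libraries as the comparison with control. The counts against control were 57 in the Pdx1 heterozygotes (0.249%), of which 10 were lower (0.0437%) and 47 higher (0.206%), and 1428 in the Oc1 heterozygotes (6.24%), of which 592 were lower (2.59%) and 836 higher (3.66%). The genes described above differed in how these values sat side by side. Ins1, Ins2, Iapp, G6pc2, Arhgap36, Mnx1, Crhr2, Adra2a, Pcsk2 and Pax6 were called lower against control, had no call in the Pdx1 heterozygotes against control, and apart from Pax6, which missed the fold minimum there, were called lower against the Pdx1 heterozygotes. Npy, Oprd1 and Nepn were called lower against control and in the Pdx1 heterozygotes, with direct differences between these genotypes of -0.01, -0.05 and -0.61 that did not pass. For the difference from the Oc1 heterozygotes no test was used, since the comparison with that heading holds other values, as given above. As a description, Ins1 lay 3.28 lower and Iapp 2.64 lower on the log2 scale in the double than in the Oc1 heterozygotes, whereas Neurog3 lay only 0.10 lower.

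A few of the called genes are neighbours in the genome. By gene order in the RefSeq annotation, in which 167 of the 170 were found, 9 pairs of called genes have at most 2 protein-coding genes between them. They include Kcnj11 and Abcc8, the subunits of 1 channel, with Ush1c beside them at -0.87 in the authors' deposited table, and the fibrinogen genes Fga, Fgb and Fgg. Among the 50 genes on either side of Pdx1, 4 are listed and 1 was called, 4930588N13Rik at -1.61 (adjusted p 0.0379) with a mean log2 CPM of -1.14. Among those around Onecut1, 15 are listed and 1 was called, the granin gene Scg3 at -0.67. Of all genes listed 7.45% were called, and of all genes counted 0.743%. Whether these counts, or the 9 pairs, exceed what the number of called genes alone would give was not tested. Just under the fold minimum lay Dnajc6 and Pyy, at -0.57. On adjusted p, Vsig2 lay inside at 0.0483, and Galr3 and Galnt3 lay outside at 0.0511 and 0.0515.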

How the data were processed

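RNA of 16 mouse embryonic pancreas samples was sequenced. The submitters' processing notes name CASAVA 1.8.2, edgeR and build mm9, and the aligner and the edgeR version are not given in the sources used here. The authors' deposited comparison table gives log2 fold changes, mean log2 CPM, p-values and adjusted p-values for 2283 genes in 5 comparisons, per the file headers, and these were used as they stand. The values of 8 rows sat 1 column too far right and were shifted to their own, 12 rows had an empty comparison, and 3 symbols had been turned into numbers. The smallest p of the double comparison times 22869 gives its deposited adjusted p of 7.89e-25, as Benjamini-Hochberg adjustment over all genes counted does.

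The 16 count columns of the read table are tied to no sample by the labels and were not used, so depth, values per library, SDs, refits and a check for duplicate libraries were not analysed here. The planned edgeR refit was replaced by the authors' edgeR p-values. The variance implied by each p-value and fold change was compared between comparisons over genes with mean log2 CPM above 4 and p under 0.9 (Python 3.11.15, scipy 1.17.1), which gave medians of 1.15, 0.905, 0.897 and 1.14 relative to the Pdx1 comparison, where the group sizes give 1.17, 0.9, 0.9 and 1.17 with the first 3 headings as printed and the last pair read by arithmetic (1.07 for the last by its printed heading), and 1.30, 1.11, 1 and 1.19 with headings exchanged. The scripts were tested on simulated data. Named genes are the 15 largest decreases and increases among called genes with mean log2 CPM of at least 1, the 10 smallest adjusted p-values, the Pdx1 and Onecut genes, called list members and up to 4 abundant uncalled members per list. Members and lists were chosen with earlier results of these data known. Promoters were matched by symbol to RefSeq (GRCm38.p6), and none of their coordinates were carried to mm9. Alternative thresholds, filters, Bonferroni adjustment and centring were tried. A few genes named by this rule are not reported here.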

Additional observations from a re-analysis of the deposited data

How the results depend on the processing

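The counts moved by more than 1.5 times under stricter rules. At an adjusted p of 0.01 there were 26 higher genes against control, and 95 lower and 23 higher against the Pdx1 heterozygotes. With a fold minimum of 2 there were 54 lower and 23 higher genes against control, 21 lower members of the gene lists (47 by the rule used), and 77 lower and 26 higher genes against the Pdx1 heterozygotes. Among genes past a mean log2 CPM of 4 there were 43 lower and 13 higher genes, 26 lower and 5 higher list members (12 higher by the rule used), and 42 lower and 12 higher genes against the Pdx1 heterozygotes. Under Bonferroni adjustment there were 54 lower and 14 higher genes, 23 lower and 6 higher list members, and 45 lower and 5 higher genes against the Pdx1 heterozygotes. Each of these settings tests or admits fewer genes by its construction. An adjusted p of 0.1 gave 151 lower and 64 higher genes, and dropping the fold minimum gave at least 141 lower and 43 higher, since the table lists no gene under 1.5-fold in all comparisons. Centring on the median of abundant listed genes, 0.06, gave 133 lower and 38 higher genes. Of the 170 called genes, 165 kept their call, 5 fell under the fold minimum (Foxj1, Vtn, Fabp4, Palm3 and Vsig2) and 0 changed direction.

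No paired analysis was possible because the count columns are tied to no sample. For the same reason DESeq2, other count filters, flow cell as a term and leaving out each library were not run, so it is not known here which calls rest on 1 library, and genes of low mean CPM such as Gkn2 carry few reads.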
